A study of Sus scrofa with 15 samples.

Results

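The genes described here are 61 genes without an established name that separated CD8α dim liver-resident NK (lrNK) cells from CD8α high NK cells of liver and blood in pigs. A symbol of LOC followed by a number is the placeholder that the annotation gives to a locus that has no approved symbol. The file held 12910 such genes among 29886, and 786 of them reached a mean of at least 10 CPM (the count divided by the library's total and multiplied by 1e6) in 1 or more of the 3 populations. A gene was kept if its mean in lrNK cells, plus 1 CPM, was at least 4 times above or at least 4 times below both other means, each plus 1 CPM. This gave 28 genes that were higher and 33 that were lower in lrNK cells, together 7.76% of the 786. Among 8000 genes with another symbol at the same level, 381 (4.76%) met the rule, and over all 8786 genes at that level 2.46% met it as higher and 2.57% as lower. The members were chosen by their mean levels in all 3 populations of these libraries, so the differences between lrNK cells and both other populations are given as a description, with no test.

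The libraries came from 5 pigs of 6 months of age with no genotype or treatment given in the labels. Each animal gave all 3 populations. CD8α high cells were sorted from blood (labelled Blood NK) and from the flush of the perfused liver (Conventional liver NK), and CD8α dim cells came from the same flush (Liver resident NK). All were CD3- and CD172a-, and each population was named by its CD8α brightness in the sort. These are bulk libraries, so fewer cells of a type and less RNA per cell cannot be told apart. Anything that varied with the animal likewise cannot be told apart from the pig, and the labels give no batch.

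NK cells are innate lymphocytes that kill infected or transformed cells and are steered by activating and inhibitory receptors, many of them encoded in gene clusters that differ between species and between individuals. Liver-resident NK cells stay in the liver sinusoids instead of recirculating. A gene without a name can be a receptor of such a cluster that has no clear counterpart in other species, a long non-coding RNA (lncRNA) that lies beside or within a named gene, or a pseudogene.

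Library totals ran from 2003499 to 5680221 counts with a median of 3686363. All 7 NK markers examined had counts in every population. Mean NCR1, the activating receptor NKp46, was 284 CPM in lrNK cells, 49.8 CPM in blood and 54.7 CPM in the liver CD8α high population, while mean CD8A was 43.9, 455 and 491 CPM in the same order. The 6 B-cell markers summed to 227 to 681 CPM in lrNK libraries, to 11.13 to 108 CPM in blood and to 0.242 to 47.8 CPM in liver CD8α high libraries, with 5 of the 6 detected in each population and CD79A at 0 throughout. The 7 T-cell markers summed to 114 to 593 CPM in lrNK libraries, 626 to 1150 CPM in blood and 710 to 1092 CPM in liver CD8α high libraries. Nearly all of that was CD3G, with CD4 and CD5 at 0 throughout. Myeloid, hepatocyte and endothelial lists each summed to at most 24.1 CPM in any library, and the erythroid list reached 304 CPM in the blood library of pig 4. The part of other cell types in the differences below was not tested.

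**Figure D1:**
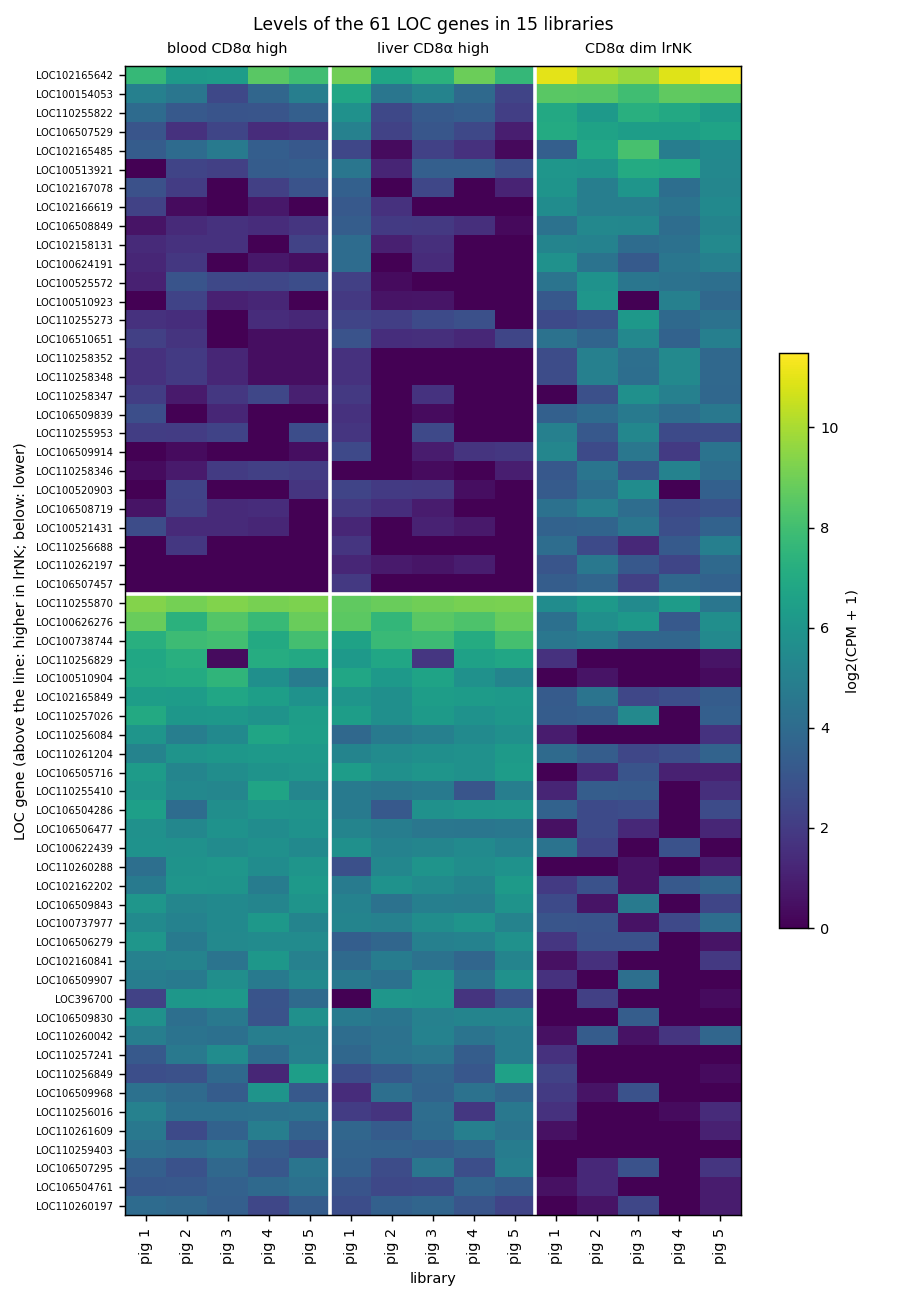
Levels of the 61 LOC genes (vertical axis, 28 higher in lrNK cells above the white line and 33 lower below it) in each of the 15 libraries (horizontal axis, 5 pigs in each population), as the colour of log2(CPM + 1). The lrNK columns are bright above the line and dark below it, and the liver CD8α high library of pig 1 is brighter than the other 4 of its population over the genes above the line.

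Most members were non-coding. The annotation calls 39 of the 61 lncRNAs (63.9%), against 351 of the 786 LOC genes at 10 CPM (44.7%). Of the 28 higher genes, 15 were lncRNAs, 8 were protein-coding and 5 were constant-region segments of antigen receptors. The 33 lower genes held 24 lncRNAs, 7 protein-coding genes and 2 pseudogenes, 1 of them transcribed. The folds against the nearer of both other populations were 4.45 to 11.3 (median 6.56) for the higher genes and 4.04 to 65.4 (median 7.21) for the lower genes. All 5 lrNK libraries lay above the other 10 for 19 of the 28 higher genes, where 4.69% of the 8786 genes at 10 CPM did so. They lay below the other 10 for 23 of the 33 lower genes, against 5.44% of those 8786 genes. The rule had used these levels, so nothing is read from either count.

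Among the higher genes, the highest level was that of LOC102165642, a protein-coding gene on chromosome 5 (61583868 to 61596985, assembly Sscrofa11.1). In lrNK cells it measured 2054, 1100, 823, 1959 and 2853 CPM in pigs 1 to 5. Blood NK cells held 205, 75.6, 81.3, 377 and 251 CPM and liver CD8α high NK cells 515, 106, 159, 474 and 196 CPM. The lowest lrNK library thus lay above the highest of the other 10, and the mean was 8.84 times the blood mean and 6.04 times the liver CD8α high mean (1 CPM added to each). This gene lies 49706 bases from KLRK1 and 65098 bases from KLRD1, which encode the NK receptor chains NKG2D and CD94. Neither neighbour followed it by the same size. KLRK1 had a mean of 613 CPM in lrNK cells, 718 CPM in blood and 923 CPM in the liver CD8α high population, whereas KLRD1 had 91.8, 26.1 and 46.7 CPM.

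Between LOC102165642 and KLRK1 lies the lncRNA LOC106507529 (chromosome 5, 61607473 to 61612590), 10488 bases from the former. Its lrNK levels of 128, 97.3, 83.5, 83.9 and 100 CPM were close to each other. In blood they were 7.2, 2.09, 4.26, 1.73 and 2.09 CPM, and the liver CD8α high libraries held 31.9, 3.87, 7.49, 4.58 and 0.967 CPM. The lrNK mean was 22.3 times the blood mean and 9.27 times the liver CD8α high mean, and 19.1 times the latter without the liver CD8α high library of pig 1. A further protein-coding LOC gene of this interval, LOC100523789, was 2.03 times higher in lrNK cells than in the nearer population and so was not part of the set.

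LOC100154053, protein-coding, lies on chromosome 4 (89762080 to 89785748) among genes of the SLAM family of lymphocyte receptors, 33232 bases from LY9, 43175 from CD48 and 61106 from CD244. The lrNK libraries held 370, 356, 245, 404 and 382 CPM. The blood libraries held 30.9, 22.0, 4.53, 12.8 and 29.2 CPM and the liver CD8α high libraries 111, 21.7, 34.4, 14.3 and 4.11 CPM. Again no other library reached the lowest lrNK value, and the lrNK mean was 16.9 times the blood mean and 9.28 times the liver CD8α high mean, which became 17.97 times without that population's library of pig 1. Its named neighbours differed less and in both directions: mean LY9 was 66.3 CPM in lrNK cells against 145 and 138 CPM in blood and liver CD8α high NK cells, CD244 was 464 against 256 and 268 CPM, and CD48 was 194 against 163 and 149 CPM.

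LOC100513921 (chromosome 3, 127869808 to 127874334), a lncRNA, measured 64.4, 61.4, 128, 118 and 40.4 CPM in lrNK cells, 0 to 9.74 CPM in blood and 1.29 to 21.5 CPM in liver CD8α high NK cells. It stood 13.3-fold above blood and 7.74-fold above liver CD8α high NK cells. The lncRNA LOC106509914, 36217 bases away, was also a member of the set (means of 17.4, 0.122 and 2.13 CPM in lrNK, blood and liver CD8α high NK cells), and no named gene at 10 CPM lay within 100 kb of LOC100513921. LOC102166619 (chromosome 5, 32239216 to 32327027) and LOC102158131 (chromosome 11, 49496916 to 49536526), both lncRNAs, ranged from 20.1 to 46.5 and from 15.9 to 41.5 CPM in lrNK cells. Outside lrNK cells their highest values were 8.31 and 15.6 CPM, both in the liver CD8α high library of pig 1.

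Some of the higher genes were undetected in blood. LOC106507457, a lncRNA on chromosome 4 (117519126 to 117526138) that lies 7915 bases from VCAM1, the gene of a vascular adhesion molecule, had 0 counts in all 5 blood libraries and in 4 of 5 liver CD8α high libraries. The lrNK libraries held 9.55, 12.5, 3.48, 13.2 and 11.4 CPM. Taking 3 counts per library as the limit of detection, the lrNK mean was at least 11.2-fold higher than in blood. VCAM1 showed the same order, with means of 42.1, 0 and 3.67 CPM in lrNK, blood and liver CD8α high NK cells. LOC110262197, a lncRNA inside RASGEF1B on chromosome 8, also had 0 counts in every blood library and was at least 12.6-fold higher in lrNK cells (mean 11.3 CPM). RASGEF1B itself, which activates RAP GTPases, differed far less, with means of 36.5, 21.1 and 25.7 CPM. These genes, like the constant-region genes, were chosen for mention after their values were seen.

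The 5 constant-region genes among the higher genes were LOC102165485, LOC106508719, LOC110258346, LOC110258347 and LOC110258348. Constant regions are the shared parts of antigen receptor chains, which B cells make as immunoglobulin and T cells as T-cell receptor. The annotation used here does not say which chain these belong to, and it places none of the 5 on a chromosome. LOC102165485 held 9.97, 108, 281, 27.8 and 42.0 CPM in lrNK cells, 9.07, 15.2, 25.6, 9.67 and 8.0 CPM in blood and 4.5, 0.258, 3.61, 2.11 and 0.242 CPM in liver CD8α high NK cells. The lrNK library of pig 1 lay inside the blood range, while the other 4 lay above every CD8α high library. LOC110258348 gave the same count as the lncRNA LOC110258352, a further member without a chromosome, in 14 of 15 libraries (348 against 349 counts in all), and whether both hold the same reads was not tested.

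Summed over the 5 genes, constant-region levels were 41.9, 198, 373, 137 and 91.7 CPM in lrNK cells of pigs 1 to 5. The sums were 12.5 to 34.1 CPM in blood and 1.21 to 12.1 CPM in liver CD8α high NK cells, so every lrNK library lay above the other 10. The B-cell markers showed the same order of populations, at 441, 681, 227, 659 and 263 CPM in lrNK cells of pigs 1 to 5. The pigs were ordered otherwise, since pig 3 had the highest constant-region sum and the lowest B-cell marker sum. Of 16 constant-region genes in the file, 9 have no chromosome and 8 of those had a higher mean in lrNK cells than in both other populations, but 5 of the 8 are the members, which the rule chose for that direction. The 4 on chromosome 9 all had a lower mean in lrNK cells, and the most abundant of them, LOC102158002, had 278, 409 and 362 CPM in lrNK, blood and liver CD8α high NK cells. The other 3 placed genes had a higher mean in lrNK cells, LOC102167789 on chromosome 18 with 6.39, 1.77 and 2.15 CPM in the same order, and LOC102158332 and LOC110256717 on chromosome 14 with at most 0.359 CPM in any population. Of 121 variable-segment genes, 0 reached 10 CPM. The part of B cells in the constant-region levels was not tested.

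**Figure D2:**
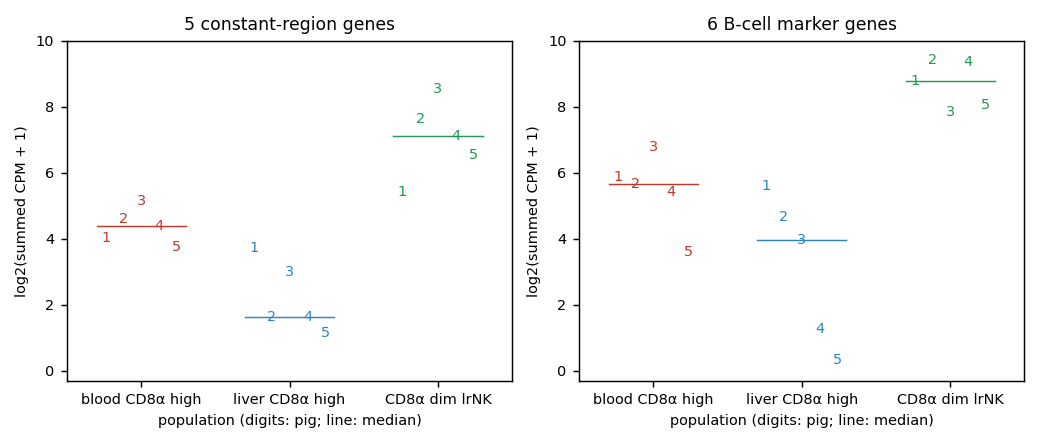
Summed levels, as log2(summed CPM + 1) on the vertical axis, of the 5 constant-region genes (left) and of the 6 B-cell markers (right) in the 3 populations (horizontal axis). Each digit is the library of that pig and each line the median, and in both panels all 5 lrNK libraries lie above the other 10.

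The lower genes were led by LOC110255870, a lncRNA on chromosome 11 (78938254 to 78952249). It measured 659, 538, 638, 559 and 599 CPM in blood and 405, 456, 501, 562 and 569 CPM in liver CD8α high NK cells. The lrNK libraries held 46.9, 71.9, 44.7, 78.1 and 22.0 CPM. The groups did not overlap, and the mean was 11.2 times lower than in blood and 9.3 times lower than in liver CD8α high NK cells. LOC100626276 (lncRNA, chromosome 1, 167523651 to 167541217) had means of 329 and 342 CPM in blood and liver CD8α high NK cells and of 39.0 CPM in lrNK cells, where it ranged from 8.21 to 68.1 CPM. No named gene at 10 CPM lies within 100 kb of it.

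The widest fold of the set belonged to LOC100510904, a protein-coding gene on chromosome 5 (10038944 to 10041242). Blood libraries held 121, 128, 182, 52.2 and 26.1 CPM and liver CD8α high libraries 109, 74.0, 99.0, 54.8 and 34.8 CPM. In lrNK cells there was 1 count in pig 2, 1 count in pig 5 and 0 counts in the other 3, a mean of 0.154 CPM and 65.4 times below the liver CD8α high mean (1 CPM added to each). The gene next to it at 450 bases, GCAT, which acts in threonine breakdown, had means of 0.166, 14.1 and 16.0 CPM in lrNK, blood and liver CD8α high NK cells. TRIOBP, an actin-binding protein gene 24838 bases away, had 10.4, 136 and 95.7 CPM.

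LOC110259403 was the one member with 0 counts in all 5 lrNK libraries. It is a lncRNA on chromosome 2 (85266533 to 85285860), 8563 bases from IQGAP2, a scaffold of the actin cytoskeleton. Blood libraries held 6.26 to 21.3 CPM and liver CD8α high libraries 10.3 to 27.3 CPM, so that its lrNK level was at least 12.2-fold lower than that of blood and at least 12.6-fold lower than that of liver CD8α high NK cells. IQGAP2 had means of 49.6, 605 and 590 CPM in lrNK, blood and liver CD8α high NK cells. In all, 11 of the 33 lower genes had a mean under 1 CPM in lrNK cells.

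LOC110256084 (lncRNA, chromosome 12, 49020234 to 49172631), 2117 bases from RAP1GAP2, a RAP1 regulator, was 63.2, 29.3, 42.9, 105 and 85.2 CPM in blood and 13.5, 24.5, 31.1, 43.5 and 53.5 CPM in liver CD8α high NK cells. In lrNK cells it had 0 to 8 counts (at most 2.17 CPM). Mean RAP1GAP2 was 22.3, 160 and 168 CPM in lrNK, blood and liver CD8α high NK cells. LOC106505716 (lncRNA, chromosome 13, 93352788 to 93356694) ranged from 36.6 to 78.9 CPM in blood, from 53.4 to 81.4 CPM in liver CD8α high and from 0 to 6.96 CPM in lrNK cells. LOC110257026 (lncRNA, chromosome 15, 86788757 to 86810130) ranged from 57.7 to 125, from 51.3 to 83.8 and from 0 to 40.7 CPM in the same order. LOC110261204 (chromosome 1, 126844145 to 126862899) is a lncRNA 102 bases from B2M, the light chain of MHC class I. It averaged 9.2 CPM in lrNK cells, 60.4 CPM in blood and 52.3 CPM in liver CD8α high NK cells, whereas B2M averaged 3296, 2878 and 2827 CPM.

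Members of opposite direction lay side by side on chromosome 4. LOC100738744 (99193725 to 99200142) and LOC102162202 (99189505 to 99191226), both protein-coding, are 2499 bases apart and were lower in lrNK cells. LOC100738744 had 22.4, 27.0, 13.4, 13.0 and 41.5 CPM there, against 123 to 265 CPM in blood and 95.6 to 273 CPM in liver CD8α high NK cells. LOC102162202 had a mean of 6.06 CPM against 49.5 and 47.8 CPM. LOC110255273 (99216737 to 99219700), 16595 bases from LOC100738744 and protein-coding too, was higher, with 4.98, 6.49, 69.6, 14.3 and 19.3 CPM in lrNK cells, 0 to 2.13 CPM in blood and 0 to 5.99 CPM in liver CD8α high NK cells. Its lrNK mean of 22.9 CPM leaned on pig 3, and the lrNK library of pig 1 lay inside the liver CD8α high range.

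Several members share bases with a named gene, and then the reads of both cannot be assigned with certainty. LOC110255870 shares 1233 bases with RASA3, a GTPase-activating protein gene, and the pair had 21270 and 22081 counts in all, with RASA3 at 1 to 1.19 times the count of LOC110255870 in every library. LOC110255822 (lncRNA, chromosome 1, 236369153 to 236372057) shares 350 bases with SIT1, a lymphocyte signalling adaptor. Its lrNK levels were 121, 72.4, 152, 119 and 78.1 CPM, against 6.93 to 15.2 CPM in blood and 3.39 to 55.8 CPM in liver CD8α high NK cells. The counts of LOC110255822 and SIT1 were equal in 7 libraries and summed to 1926 and 1873.

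Other overlapping pairs had less similar levels. LOC102167078 (lncRNA, chromosome 8, 135035179 to 135130438) shares bases with both HPSE, the gene of heparanase, and the helicase gene HELQ. It had 60.2, 29.4, 62.1, 16.9 and 37.4 CPM in lrNK cells, 0 to 6.61 CPM in blood and 0 to 10.4 CPM in liver CD8α high NK cells. HPSE had means of 39.1, 2.03 and 1.28 CPM in the same order, and HELQ 21.2, 16.1 and 17.7 CPM. LOC106508849 (lncRNA, chromosome 1, 33567430 to 33586865) lies wholly within ARHGAP18, a GTPase-activating protein gene. Both were highest in lrNK cells, at means of 29.7 CPM for the lncRNA and 194 CPM for ARHGAP18, which had 1.43 to 14.3 times the lncRNA's count across libraries. LOC110256688, a lncRNA on chromosome 14 (54988765 to 55003073), shares 3442 bases with EDARADD, an adaptor of a TNF receptor family member. It had 16.2, 4.99, 1.49, 8.47 and 29.6 CPM in lrNK cells and at most 2.62 CPM in any other library, and EDARADD had means of 45.2, 0.533 and 1.53 CPM in lrNK, blood and liver CD8α high NK cells.

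**Figure D3:**
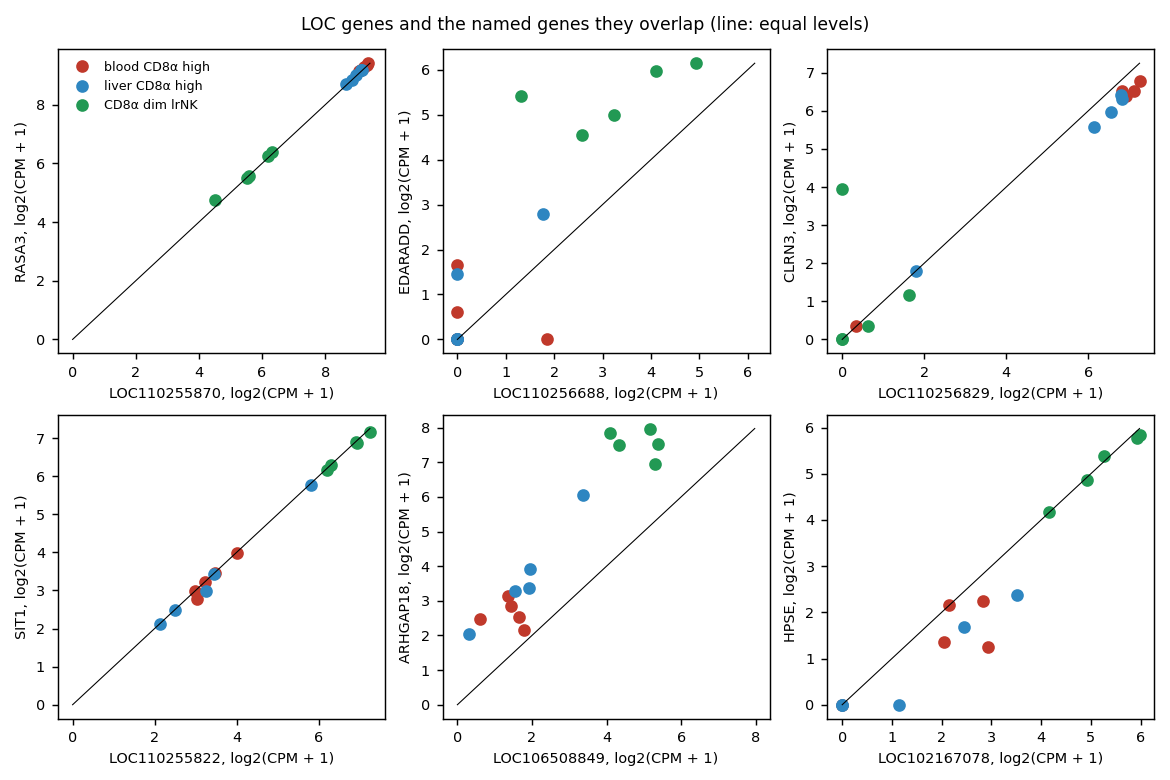
Each panel plots a LOC gene (horizontal axis) against the named gene that shares bases with it (vertical axis), both as log2(CPM + 1), with 1 point per library coloured by population and a line of equal levels. The pairs with RASA3 and SIT1 lie on the line in all populations, HPSE lies near it in lrNK cells, EDARADD lies above it in lrNK cells, and ARHGAP18 lies above it in every library. In the CLRN3 panel 2 lrNK libraries share the point at 0, as do 5 CD8α high libraries in the EDARADD panel.

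Named neighbours of the lower genes were often lower as well. Within 100 kb, 25 of the 33 lower genes had a named gene at 10 CPM, and for 16 of these 25 (64.0%) at least 1 such neighbour had an lrNK level 2-fold or more below both other populations. For 2 of the 25 (8.0%) a neighbour was at least 2-fold higher. Among 609 other LOC genes at 10 CPM with such a neighbour the shares were 12.3% lower and 11.8% higher. Of the 28 higher genes, 17 had a named neighbour, which was at least 2-fold higher for 7 (41.2%) and lower for 2. The neighbours' levels come from the contrast that chose the members, so these shares are a description.

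The shares of the higher genes differed with and without overlaps. When genes that share bases with a named gene at 10 CPM were set aside, 2 of 10 higher genes (20%) had a 2-fold higher neighbour, against 11.7% of 341 other LOC genes. For the lower genes it was 13 of 21 (61.9%), against 12.02%. Examples of these neighbours are CD226, an activating NK receptor gene 4240 bases from LOC110261609, with means of 15.9, 119 and 143 CPM in lrNK, blood and liver CD8α high NK cells. LY6D, a GPI-anchored surface protein gene 4398 bases from LOC110260197, had 2.75, 329 and 329 CPM. ARHGAP26, a GTPase-activating protein gene 4089 bases from LOC102160841, had 6.74, 116 and 120 CPM. MYO1F, a myosin gene 88 bases from LOC106507295, had 17.9, 97.3 and 96.6 CPM. LOC100622439, which lies 1184 bases from IL10RA, was flanked by both directions. IL10RA, a receptor chain for interleukin 10, had 47.4, 169 and 125 CPM, while MPZL3, 86474 bases away, had 81.5, 5.09 and 10.9 CPM.

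The comparison that the rule did not ask for is that of liver CD8α high with blood NK cells, although both means enter the rule. None of the 60 members that passed the filter on low counts differed (edgeR quasi-likelihood test, Benjamini-Hochberg adjustment over 10939 genes), where 7 of all genes tested were called (0.064%; 0.0457% higher and 0.0183% lower in liver). LOC110256688 did not pass the filter. Of the 27 higher genes tested, 18 passed it only through their lrNK counts and had low counts in both populations compared, so the comparison says little of them, whereas all 33 lower genes also passed it in the CD8α high libraries alone. DESeq2 called 0 members too and 25 genes in all (0.229%). At an unadjusted p under 0.05 there were 10 members by edgeR, against 5.02% of all genes, but 4 of them were among those 18. LOC110262197, for example, had 0 counts in blood and 14 in the liver CD8α high libraries together, and LOC106507457 had 0 and 8. There were 13 by DESeq2 (5.64% of all genes), 7 of them among the 18, and 11 by edgeR with the pig as a block (5.91% of all genes), 3 of them among the 18. A p that misses the threshold does not show equal levels.

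For the 33 lower genes, the log2 fold changes of liver CD8α high against blood ran from -1.46 to 0.30 with a median of -0.30, where the median of all genes tested was -0.02, and the liver CD8α high mean was below the blood mean in 26 of 33, against 48.9% of all genes tested. LOC110255870 had a log2 fold change of -0.30 ± 0.23 (SE, fit without the pig as a block), LOC100738744 of -0.14 ± 0.30 and LOC106505716 of 0.18 ± 0.36. The widest value was that of LOC110255410, at -1.46 ± 0.54, which also had the lowest adjusted p of the lower genes (0.773, edgeR). Its mean was 57.0 CPM in blood and 21.4 CPM in liver CD8α high NK cells. LOC106506477 and LOC110256084 each had -0.999, with SE of 0.38 and 0.43. These SE ignore that the libraries are paired by pig. LOC110255410, LOC106506477 and LOC110256084 were each lower in liver CD8α high than in blood NK cells in all 5 pigs. LOC110255870 was lower in 4 of 5, LOC100738744 in 3 and LOC106505716 in 1. With the pig as a block LOC110255410, LOC106506477 and LOC110256084 had -1.56, -1.04 and -0.99, and none was called.

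The 9 higher genes that passed the filter without lrNK libraries ran from -2.80 to 1.37. LOC102165642 had 0.51 ± 0.45, LOC100154053 0.84 ± 0.56 and LOC106507529 1.37 ± 0.61 on the log2 scale, and without pig 1 these became 0.22, 0.098 and 0.67. Within pigs, LOC102165642 and LOC106507529 were higher in liver CD8α high than in blood NK cells in 4 of 5, and LOC100154053 in 3. The lowest adjusted p of the higher genes was that of LOC102165485 (-2.75 ± 0.77, adjusted p = 0.521, edgeR), and it became 0.0174 when every gene with at least 1 count was tested. LOC102165485 was lower in liver CD8α high NK cells in all 5 pigs, and its adjusted p was 0.256 with the pig as a block (edgeR). LOC100525572, a protein-coding gene on chromosome 4 with 1.07, 6.8, 4.53, 4.49 and 5.57 CPM in blood, had 3.46 CPM in the liver CD8α high library of pig 1 and at most 0.258 CPM in the other 4. Its log2 fold change was -2.80 ± 0.88 (adjusted p = 0.583, edgeR) and, without pig 1, -5.86 (adjusted p = 0.0217, edgeR).

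**Figure D4:**
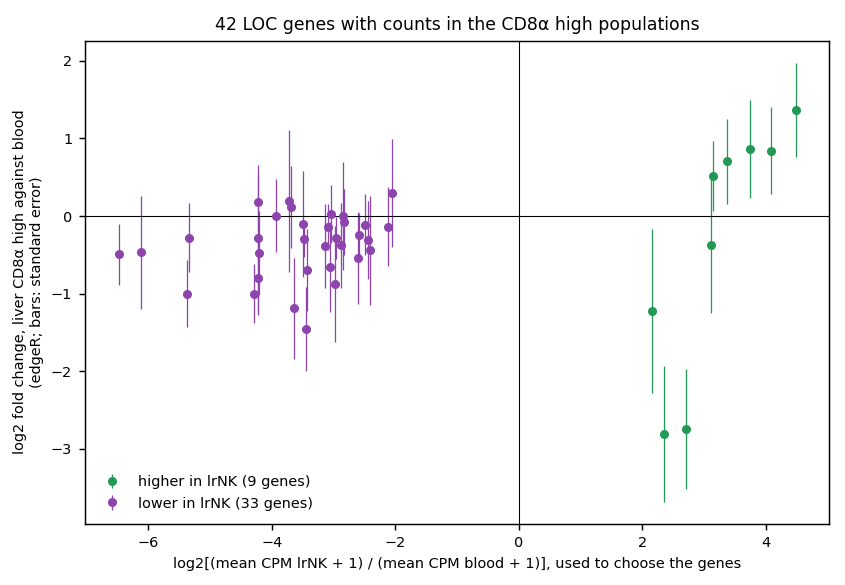
Log2 fold change of liver CD8α high against blood NK cells with its standard error (vertical axis, edgeR) for the 42 genes that passed the filter on low counts in both CD8α high populations alone, against log2 of the ratio of lrNK to blood means plus 1 CPM that served to choose them (horizontal axis). The 33 lower genes lie between -1.46 and 0.30, the 9 higher genes between -2.80 and 1.37.

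One liver CD8α high library stood apart for the higher genes. Their summed level was 846 CPM in pig 1 and 155 to 528 CPM in the other 4 pigs. Without LOC102165642 it was 332 CPM in pig 1, 23.9 to 96.3 CPM in the other 4 liver CD8α high libraries and 66.7 to 105 CPM in blood, while the lrNK libraries held 1100 to 1452 CPM. In that library 27 of the 28 genes had a count, against 11 to 22 in the other 4. Of the 7 NK markers, 5 stood outside the range of the other 4 libraries in the direction of their lrNK means. NCR1 was at 168 CPM (11.4 to 39.7 CPM in the other 4) and KLRB1, an NK receptor gene, at 689 CPM (243 to 395 CPM), both of which had their highest means in lrNK cells. CD8A was at 277 CPM (424 to 598 CPM) and GNLY, which encodes granulysin, at 933 CPM (1213 to 1892 CPM), both of which had their lowest means in lrNK cells. KLRK1, at 665 CPM, was also below the other 4 (714 to 1474 CPM) and had its lowest mean in lrNK cells. NKG7, a granule membrane protein gene whose mean was highest in lrNK cells as well, lay within the range of the others at 782 CPM (637 to 831 CPM), as did PRF1, the perforin gene, at 343 CPM (285 to 391 CPM). In the blood library of pig 1, NCR1 was high too, at 98.9 CPM (25.9 to 47.3 CPM in the other 4 blood libraries). CD8A at 225 CPM (449 to 605 CPM) and KLRK1 at 386 CPM (615 to 1001 CPM) were low there. KLRB1 at 209 CPM and GNLY at 1207 CPM lay within the range of the other blood libraries. In the liver CD8α high library of pig 1, the B-cell marker sum of 47.8 CPM was the highest of the 5. So was the erythroid sum, at 56.5 CPM (0 to 6.34 CPM in the other 4). The part of any of these in the higher genes was not tested. With that library left out, 32 genes met the rule for higher genes, among them all 28. With pig 1 left out, LOC110255822 moved from 0.71 to -0.31 on the log2 scale between liver CD8α high and blood.

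Differences between pigs were not used by the rule. They were tested as the 4 pig terms of an edgeR fit of population plus pig, which called 3 of the 60 members where 46 of 10939 genes were called (0.421%). At an unadjusted p under 0.05 there were 15 members, against 8.3% of all genes.

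LOC110256829, a lncRNA on chromosome 14 (137082171 to 137089838), was nearly silent in pig 3. Blood libraries held 113, 151, 0.267, 138 and 120 CPM and liver CD8α high libraries 70.0, 111, 2.5, 92.6 and 111 CPM. In lrNK cells it was at most 2.08 CPM in every pig. In counts, pig 3 had 1 in blood and 9 in liver CD8α high NK cells. The adjusted p between pigs was 0.00161 (edgeR), and 0.933 without pig 3. The gene shares 7657 bases with CLRN3, of the clarin family of membrane proteins, which was low in the same libraries of pig 3, at 0.267 and 2.5 CPM against 46.4 to 110 CPM in the other 8 CD8α high libraries. In lrNK cells of pig 3, however, CLRN3 had 14.4 CPM and LOC110256829 had 0.

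LOC396700, a protein-coding gene on chromosome 3 (40596408 to 40598426), was high in pigs 2 and 3. Blood libraries held 3.73, 66.4, 67.7, 6.91 and 14.6 CPM and liver CD8α high libraries 0, 64.5, 60.2, 2.29 and 6.53 CPM. The lrNK libraries held at most 3.49 CPM, in pig 2. The adjusted p between pigs was 0.00286 (edgeR), and 0.0527 without pig 2. LOC102165642 was lowest in pigs 2 and 3 in all 3 populations, with the values given above, and its adjusted p between pigs was 0.00895 (edgeR), and 0.141 without pig 2.

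**Figure D5:**
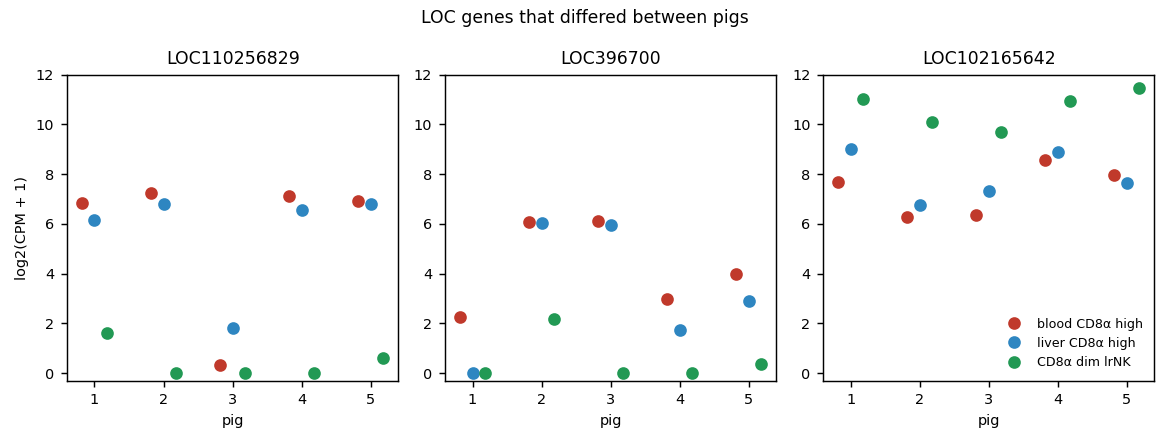
Levels of the 3 genes that differed between pigs, as log2(CPM + 1) on the vertical axis, for pigs 1 to 5 on the horizontal axis, with 1 point per population. LOC110256829 is low in the CD8α high cells of pig 3 and of no other pig, LOC396700 is high in the CD8α high cells of pigs 2 and 3, and LOC102165642 is lowest in pigs 2 and 3 in each population.

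The edge of the rule fell in a continuous range. The last genes inside for the higher direction were LOC110255953, at 4.45-fold against the nearer population (means of 17.6, 3.18 and 1.43 CPM in lrNK, blood and liver CD8α high NK cells), and LOC100521431, at 4.52-fold (12.5, 1.98 and 0.64 CPM). The first outside were LOC110256118 at 3.94-fold and LOC106507542 at 3.90-fold. For the lower direction LOC110260042, at 4.04-fold (5.01, 25.0 and 23.3 CPM), and LOC110260197, at 4.12-fold (1.16, 10.5 and 7.88 CPM), lay just inside, and LOC100521938 at 3.99-fold and LOC100624795 at 3.79-fold just outside. The lrNK mean of LOC110260197 leaned on pig 3, at 4.47 CPM against at most 0.814 CPM in the other pigs.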

How the data were processed

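RNA from the 3′ end of transcripts (QuantSeq 3′ FWD kit) of 15 sorted NK cell libraries was sequenced. The authors trimmed the reads with QuasR, aligned them with HISAT2 (Rhisat2) to Sscrofa11.1 and deposited whole-number counts per gene and library without normalization. How reads were counted (the tool, strand and reads with several alignments) is not given in the sources used here. All 15 columns were matched to a sample by the labels, and 0 columns had no sample.

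CPM is the count divided by the column total. Counts were tested with edgeR 4.0.16 in R 4.3.3 (TMM, default filter by population leaving 10939 genes, quasi-likelihood test, Benjamini-Hochberg adjustment over these genes) in a single fit of all 15 libraries, and pigs in a fit of population plus pig. Standard errors are the log2 fold change divided by the square root of F, from the fit without the pig as a block. Gene types and positions came from a RefSeq table of Sscrofa11.1 that gives no strand. It matched all 61 members, 55 of them on a chromosome. Reads from a 3′ kit do not scale with transcript length.

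Members and lists were chosen with earlier results of these data known. Named members are the 10 highest in lrNK cells among the higher genes, the 10 highest in blood among the lower genes, those called between liver CD8α high and blood NK cells or between pigs, and the 2 just inside the fold of 4 in each direction, with 2 LOC genes just outside and the neighbours of all these. Others were chosen after their values were seen. Results of some of the genes that this rule names are left out. The pig pairs the libraries, per the labels and the study's methods. Deviations from population means correlated at 0.107 on average within a pig (15 pairs, -0.0191 to 0.193) and -0.0265 between pigs (60 pairs).

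Alternatives were DESeq2 1.42.0, its size factors, no filter, the pig as a block, fewer libraries, other thresholds, each pig left out, and a count of the members that pass the filter in the CD8α high libraries alone, added after the data were seen. On simulated data edgeR recovered 173 of 200 changed genes between both CD8α high populations (9 false calls, 10680 genes; DESeq2 180, 36 false) and 159 of 200 between pigs (7 false calls, 10699 genes; DESeq2 162, 34 false). The changed genes were drawn from those with larger mean counts, and all changed by the same fold. The simulated counts used the spread estimated by edgeR and held no other difference between populations or pigs. The recovery therefore says nothing of members with low counts or small changes. Promoter motifs and protein comparisons were planned, but promoter and protein sequences were not used here. Python 3.11.15 with matplotlib 3.10.9 drew the figures.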

Additional observations from a re-analysis of the deposited data

Results flagged for a closer look

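Each level of a named gene within a population was checked for a library far from the other 4 by Dixon's test. It flags about 1 in 20 groups by chance if values are independent and normally distributed. Some of these groups held values at or near 0 CPM, and several flags share a library, so the number flagged measures no excess. Of 74 groups checked, 14 held such a library.

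In the liver CD8α high library of pig 1, LOC100154053 stood at 111 CPM (others at most 34.4 CPM), LOC110255822 at 55.8 CPM (9.86), LOC106507529 at 31.9 CPM (7.49), LOC102166619 at 8.31 CPM (2.06), LOC106508849 at 9.35 CPM (2.84) and LOC102158131 at 15.6 CPM (1.94). All 6 are higher in lrNK cells. In the blood library of the same pig, LOC102166619 was high at 3.73 CPM (others at most 0.691 CPM) and LOC110261204 was low at 34.4 CPM (others at least 60.9 CPM).

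LOC110256829 was low in the blood library of pig 3, at 0.267 CPM with the others at least 113 CPM, and reached 2.08 CPM in the lrNK library of pig 1 (others at most 0.543 CPM). In the lrNK library of pig 3, 3 genes that are lower in lrNK cells were high: LOC110257026 at 40.7 CPM (others at most 10.04 CPM), LOC106505716 at 6.96 CPM (1.497) and LOC110260197 at 4.47 CPM (0.814). LOC396700 was at 3.49 CPM in the lrNK library of pig 2, with the others at most 0.271 CPM.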

How the results depend on the processing

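The number of genes that met the rule depended on its numbers. The 28 higher genes became 12 with 5 CPM added to the means in place of 1, 8 with a fold of at least 8 and 18 with a mean of at least 20 CPM, and the 33 lower genes became 21 with 5 CPM added and 15 with a fold of at least 8. The genes kept under these settings were all among the original ones. Leaving out each pig gave 26 to 35 higher and 28 to 38 lower genes. With medians over pigs in place of means there were 29 higher genes, 21 of them shared, and 43 lower genes, 31 shared. Both of the next settings were chosen after seeing the data. Without the lrNK library of pig 3 there were 26 higher (22 shared) and 38 lower genes (32 shared), and without the liver CD8α high library of pig 1 there were 32 (28 shared) and 34 (33 shared).

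Between liver CD8α high and blood NK cells, the 5 genes called higher over all genes became 15 with DESeq2, 12 with no filter on low counts and 12 in a fit of those populations alone, and the 2 called lower became 10, 6 and 4. Leaving out each pig gave 0 to 6 higher and 0 to 2 lower. Without pig 2 there were 0 of either. Among the members the count of 0 called lower became 1 with no filter (LOC102165485), and 0 to 1 with a pig left out (LOC100525572 without pig 1). No member was called higher under any of these settings. With the pig as a block, the pairing changed no member's call, and 8 genes were called in all in place of 7.

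Between pigs, the 46 genes called became 244 with DESeq2, 462 with no filter and 16 to 123 with a pig left out (16 without pig 2, 123 without pig 3), and the 3 members called became 8, 23 and 1 to 6. LOC110256829 was lost without pig 3, and LOC396700 and LOC102165642 without pig 2. Over the alternatives the adjusted p of LOC110256829 ran from 1.05e-30 to 0.933, of LOC396700 from 3.11e-20 to 0.0527 and of LOC102165642 from 1.09e-22 to 0.141. In simulated data DESeq2 made 36 false calls where edgeR made 9 between populations, and 34 where edgeR made 7 between pigs. Those counts used the spread that edgeR had estimated, so they do not compare both tools evenly. The cause of the larger counts in the libraries themselves was not tested.

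Of 246 log2 fold changes between liver CD8α high and blood NK cells under alternatives, for 25 named members, 6 changed sign. A further 1 passed the threshold, that of LOC102165485 with no filter on low counts (adjusted p = 0.0174, edgeR). As the lowest adjusted p of any member in the main fit was 0.521 (edgeR), the lack of change in the other 239 shows no stability. LOC106508849 (28 counts in blood and 60 in liver CD8α high libraries) and LOC102158131 (33 and 56) passed the filter only through their lrNK counts, as did LOC102166619 and LOC100521431, and their values rest on few reads. Without pig 1, LOC110255822 became -0.31, LOC106508849 -0.038, LOC102158131 -1.51 and LOC110260042 0.037. LOC102167078 became 0.11 without pig 5 and LOC100626276 -0.043 without pig 4. Over all fits with a pig left out, these values ran from -0.31 to 1.00 for LOC110255822, from -1.27 to 0.11 for LOC102167078, from -0.038 to 1.42 for LOC106508849, from -1.51 to 1.53 for LOC102158131, from -0.043 to 0.14 for LOC100626276 and from -0.40 to 0.037 for LOC110260042. Members with low counts are measured with low precision, and for them a missing call says little.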
